A study of Mus musculus with 4 samples.

Results

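The transcription factor p53 (Trp53), its 2 inhibitors Mdm2 and Mdm4, and 7 genes of its arrest and feedback arm were examined in naive mouse embryonic stem cells whose level of the long noncoding RNA Lncenc1 differed. The 10 genes were Trp53, Mdm2, Mdm4, Cdkn1a, Ccng1, Sesn1, Btg2, Plk2, Trp53inp1 and Gtse1. They were chosen by symbol from the 19840 genes of the deposited table, through the Ensembl identifier without its version, and all 10 are among the 14070 genes with an adjusted p. The choice used no measured value of these genes, but it was made with earlier results of the same comparison known.

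The cells were kept in the ground state in 2i/LIF, a medium with kinase inhibitors and leukaemia inhibitory factor. All of them were infected with a plko.1 lentivirus and selected for 2 days with puromycin, and the viral insert was either the control hairpin, shCtrl, or one directed at Lncenc1, spelled shLincenc1 in the labels. Each group held 2 libraries of total RNA. The labels name the lines E14TG2a and R1 without tying a library to either, and do not say which of 2 designed hairpins a library carried or whether replicate libraries derive from different cultures, and the spread behind each p-value may therefore be technical.

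The deposited table holds 1 comparison with no stated numerator. Its numerator held more Lncenc1, so it is named here the Lncenc1-high group (libraries H1 and H2) and its counterpart the Lncenc1-low group (L1 and L2). Normalized reads of Lncenc1 were 6400 (H1) and 7250 (H2) beside 2126 (L1) and 2121 (L2), a difference that fixes the names of the groups and so does not check the labels. Reads of each library, recovered from the deposited means for 19816 genes, summed to between 10467116 and 26116997 a library, with H1 the deepest. The 8 naive pluripotency markers (Nanog, Klf4, Zfp42, Esrrb, Tfcp2l1, Pou5f1, Sox2 and Dppa5a) had 1247 or more normalized reads in every library, and their sums were 81425 (H1), 77835 (H2), 68416 (L1) and 65738 (L2). Of the markers of other cells, the fibroblast ones (5 of 6 listed) summed to 161 and 137 in the high libraries and 375 and 222 in the low ones. Fbn1 alone gave 140, 110, 324 and 174 of these, and Col1a1, Col1a2 and Col3a1 were at 18.5 or less in every library. Those of trophoblast (5 of 6 listed) summed to 181, 374, 132 and 649 in H1, H2, L1 and L2, and those of primitive endoderm to between 64.2 and 87.5. In such bulk RNA, fewer cells of a type and less RNA per cell cannot be told apart.

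p53 is held at a low protein level by Mdm2, a ubiquitin ligase, together with Mdm4, a related protein that binds p53 and pairs with Mdm2. When p53 is stabilised by DNA damage or other stress it switches on genes that halt the cell cycle, and it also switches on Mdm2, which closes a negative feedback loop. Most of this control acts on the protein, so the mRNA of Trp53 says little about p53 activity, while the mRNAs of its targets are the usual readout. Mouse embryonic stem cells hold much p53 and have a weak G1 checkpoint.

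p53 binds DNA as a tetramer at a pair of decamers, and the start regions of the genes were searched for them because such an element is what the p53 targets are known to share. RefSeq promoter windows of 300 bases (250 before to 50 after a transcript start, build GRCm38.p6) matched 9 of the 10 genes with 13 windows, Trp53inp1 being the one without. A pair of adjacent p53 half-site decamers with at most 1 position off was found in 3 of the 13 windows, those of Cdkn1a, Ccng1 and Gtse1, and in 0.0883% of all 32851 windows. Both windows below are printed 5′ to 3′ along the gene's strand, with the decamers in capitals. In Cdkn1a the pair starts 51 bases before the more upstream of its 2 annotated starts, and a further single decamer starts 73 bases before it.
Cdkn1a, chr17:29090729-29091028, plus strand: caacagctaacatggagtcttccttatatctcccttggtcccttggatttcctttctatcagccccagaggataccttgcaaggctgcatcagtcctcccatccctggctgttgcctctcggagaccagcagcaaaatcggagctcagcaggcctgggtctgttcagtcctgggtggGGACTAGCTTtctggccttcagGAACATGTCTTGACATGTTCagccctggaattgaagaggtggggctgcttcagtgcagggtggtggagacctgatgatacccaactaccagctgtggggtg
Ccng1, chr11:40755237-40755536, minus strand: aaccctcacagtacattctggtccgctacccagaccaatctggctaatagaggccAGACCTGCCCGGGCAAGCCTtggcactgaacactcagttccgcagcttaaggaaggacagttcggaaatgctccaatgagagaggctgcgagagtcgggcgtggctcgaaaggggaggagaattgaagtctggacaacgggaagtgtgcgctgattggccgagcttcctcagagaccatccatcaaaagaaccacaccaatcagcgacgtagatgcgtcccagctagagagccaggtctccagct
In Gtse1 the pair is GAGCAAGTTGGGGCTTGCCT, which lies across the start of the more downstream of its 2 windows. A single decamer without mismatch was present in 6 of the 13 windows, from 6 genes (Trp53, Mdm2, Cdkn1a, Ccng1, Sesn1 and Gtse1), and in 8.36% of all windows. The one in Mdm2 was GAACTTGCCT, 186 bases before the start, in the window chr10:117710709-117711008 on the minus strand. The windows of Mdm4, Btg2 and Plk2 held none. The matches are descriptions of letters in these windows, and the RNA data do not tell which start was used.

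Btg2 and Plk2 differed most between the groups, and their windows are shown because both hold the 8 letters TGACGTCA of the cAMP response element, in capitals below. It was found in 2 of the 13 windows and in 1.79% of all windows, and it starts 166 bases before the start of Btg2 and 62 bases before that of Plk2.
Btg2, chr1:134079106-134079405, minus strand: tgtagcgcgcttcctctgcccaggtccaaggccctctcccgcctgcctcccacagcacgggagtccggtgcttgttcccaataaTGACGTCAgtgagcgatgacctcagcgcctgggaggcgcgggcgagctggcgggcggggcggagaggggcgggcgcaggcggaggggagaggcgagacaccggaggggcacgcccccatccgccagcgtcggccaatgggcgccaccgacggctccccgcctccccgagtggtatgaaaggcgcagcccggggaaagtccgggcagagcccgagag
Plk2, chr13:110394794-110395093, plus strand: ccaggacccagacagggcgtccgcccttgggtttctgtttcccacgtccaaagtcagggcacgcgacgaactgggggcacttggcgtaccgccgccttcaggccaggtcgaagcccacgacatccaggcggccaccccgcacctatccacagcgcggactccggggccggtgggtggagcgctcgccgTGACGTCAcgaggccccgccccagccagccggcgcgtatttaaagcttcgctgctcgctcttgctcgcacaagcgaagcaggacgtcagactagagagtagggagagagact
Both strands were searched for 7 motifs, picked with the windows in view. The CCAAT box (CCAAT) was in 8 of the 13 windows, from 6 genes, and in 37.4% of all windows. The GC box (GGGCGG) was in 6 of the 13, from 5 genes, and in 35.7% of all. The TATA box (TATAAA) was in 1 of the 13, that of Trp53, and in 13.6% of all. The cell cycle homology region (TTTGAA, 17.9% of all windows) and the CArG box (1.63% of all windows) were in none of the 13. The cAMP response element overlaps no other match in these windows, whereas the adjacent GC boxes of Btg2 overlap each other.

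None of the 10 genes passed a DESeq2 adjusted p of 0.05 in the authors' deposited table, where 1.53% of all tested genes did, 1.02% toward the Lncenc1-low group. At an unadjusted p under 0.05 were 5 of them (Mdm2, Btg2, Plk2, Gtse1 and Trp53inp1), all toward the Lncenc1-low group, beside 5.28% of all tested genes in that direction and 8.82% in either. Limma voom on the recovered counts also called 0 of them, and 8 of 14046 genes in all. At an unadjusted p under 0.05 by voom were 5 of the 10, all toward the low group. The share of all genes in that direction by voom was 5.61%. The log2 fold change, given throughout as Lncenc1-high over Lncenc1-low, was negative for 8 of the 10 genes and for 50.6% of all tested genes. Its median was -0.33 over the 10 genes and -0.01 over all tested genes, from the authors' deposited table. In 6 of the 10 (Mdm2, Ccng1, Btg2, Plk2, Trp53inp1 and Gtse1) both low libraries lay above both high libraries, which held for 20.7% of all tested genes with recovered counts. The reverse held for 0 of the 10 and for 20.6% of those genes.

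**Figure D1:**
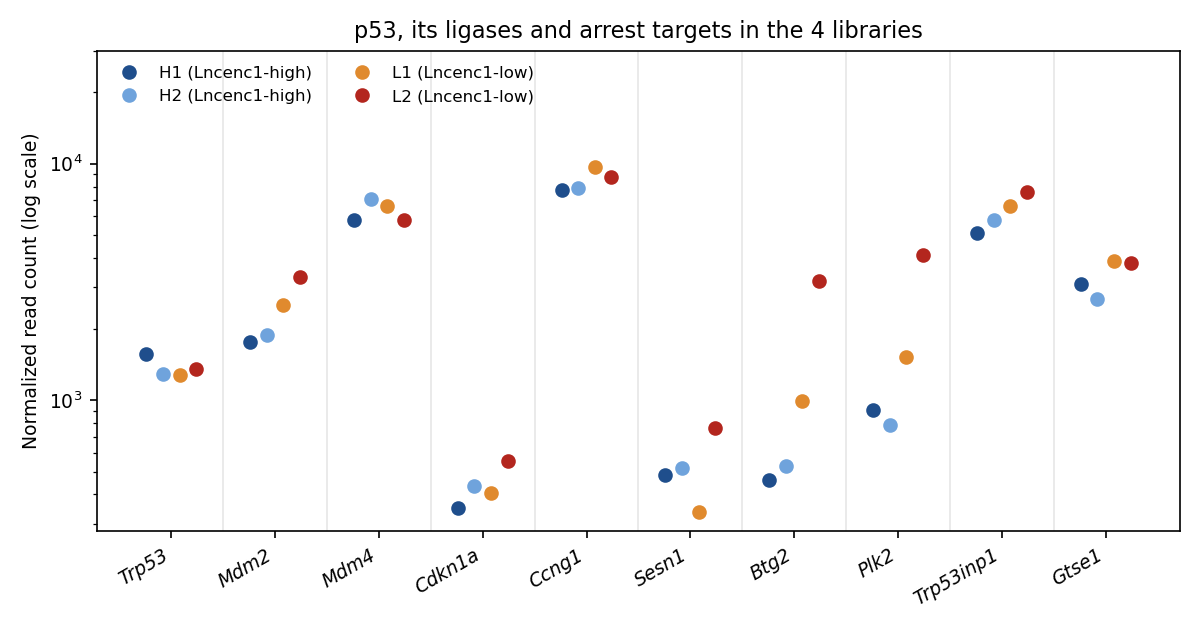
Normalized read count (log scale) of each of the 10 genes in the 4 libraries, H1 and H2 of the Lncenc1-high group in blue and L1 and L2 of the Lncenc1-low group in orange and red. Each point is 1 library. Trp53 and Mdm4 mix the groups, Mdm2 separates them, and Btg2 and Plk2 stand highest in L2.

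The mRNA of p53 itself gave no difference beyond the spread. Trp53 (ENSMUSG00000059552.12) had 1569 and 1287 normalized reads in H1 and H2 and 1285 and 1359 in L1 and L2. The groups overlapped, and H1 alone stood somewhat above the rest. Its log2 fold change in the authors' deposited table was 0.11 ± 0.21 (SE), with a 95% interval from -0.31 to 0.53 and a DESeq2 adjusted p of 0.998. The interval leaves room for a level in the low group between 0.691 and 1.24 times that in the high group. No gene of the GENCODE M21 annotation shares exon bases with Trp53.

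Of the pair of p53 inhibitors, Mdm2 separated the groups and Mdm4 did not. Mdm2 (ENSMUSG00000020184.13), the ligase that p53 itself switches on, had 1766 and 1882 normalized reads in H1 and H2, and 2535 and 3326 in the low libraries L1 and L2. Both low libraries were above both high ones, with L2 the highest. The group means were 1824 ± 81.9 (SD, n = 2) and 2930 ± 559 (SD, n = 2). That is 1.61-fold more in the low group, with a 95% interval from 1.21 to 2.14. The log2 fold change in the authors' deposited table was -0.68 ± 0.21 (SE), with an unadjusted p of 0.00115 and a DESeq2 adjusted p of 0.0654. By the size of its test statistic Mdm2 ranked 246 among all tested genes, of which 215 were called, so it lay just outside the threshold.

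Mdm4 (ENSMUSG00000054387.12), which inhibits p53 mainly by binding its activation domain, had 5766 and 7085 normalized reads in H1 and H2 and 6615 and 5753 in L1 and L2. Its highest and lowest libraries were H2 and L2, and the groups overlapped in full. The authors' deposited table gives it a log2 fold change of 0.05 ± 0.20 (SE), with a 95% interval from -0.33 to 0.44. Within each library the reads of Mdm2 over those of Trp53 were 1.13 in H1, 1.46 in H2, 1.97 in L1 and 2.45 in L2. This ratio needs no size factor, and it was higher in both low libraries. For Mdm4 over Trp53 the same ratios were 3.67, 5.50, 5.15 and 4.23, which mix the groups.

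The classical arrest effector did not pass the test. Cdkn1a (ENSMUSG00000023067.12) codes for p21, the inhibitor of cyclin-dependent kinases through which p53 halts cells in G1. It had 352 and 434 normalized reads in H1 and H2 and 407 and 554 in L1 and L2. L2 was highest, and L1 lay between the high libraries. The log2 fold change in the authors' deposited table was -0.29 ± 0.29 (SE), with a 95% interval from -0.86 to 0.27 and a DESeq2 adjusted p of 0.953. In fold terms the low group could lie anywhere from 0.829 to 1.81 times the high group. An unnamed transcript model, AC167363.2, lies on the opposite strand over 7.68% of the exon bases of Cdkn1a, and without a stated strand setting of the counting its reads cannot be told apart.

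Btg2 and Plk2 had the largest differences and the widest spread. Btg2 (ENSMUSG00000020423.6) is an antiproliferative protein that recruits the CCR4-NOT deadenylase. It had 460 and 526 normalized reads in H1 and H2, 991 in L1 and 3195 in L2. Both low libraries lay above both high ones, but L2 held 3.22 times the level of L1. The group means were 493 ± 46.4 (SD, n = 2) and 2093 ± 1558 (SD, n = 2). The log2 fold change in the authors' deposited table was -2.09 ± 0.76 (SE), with a 95% interval from -3.58 to -0.59 and a DESeq2 adjusted p of 0.199.

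Plk2 (ENSMUSG00000021701.7), a polo-like kinase induced early after stress or growth signals, was likewise highest in L2, then in L1. It had 911 and 790 normalized reads in H1 and H2, 1529 in L1 and 4109 in L2. L2 held 2.69 times the level of L1, while H1 and H2 were close. The group means were 851 ± 85.1 (SD, n = 2) and 2819 ± 1824 (SD, n = 2). The log2 fold change in the authors' deposited table was -1.73 ± 0.67 (SE), with a 95% interval from -3.04 to -0.42 and a DESeq2 adjusted p of 0.248. The dispersion that the deposited standard errors imply was 0.279 for Btg2 and 0.213 for Plk2, against 0.0152 to 0.0547 for the other 8 genes.

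Among the 6239 tested genes whose mean reached 400 normalized reads, L2 reached 2 or more times L1 in 1.47%. Btg2 ranked 13 and Plk2 25 by that ratio, and the only other member with such a ratio was Sesn1, at rank 52. Library L2 also had the highest summed trophoblast markers (649, of which Krt8, a keratin, gave 577), while Cdx2, the defining trophoblast factor, had 19.8 normalized reads there and 87.8 in H2. The part of other cells in the values of L2 was not tested.

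Ccng1 (ENSMUSG00000020326.7) codes for cyclin G1, which brings protein phosphatase 2A to Mdm2. It was the most abundant of the 10 by reads, at 7749 and 7923 normalized reads in H1 and H2 and 9724 and 8746 in L1 and L2. The libraries did not overlap between the groups, yet the difference was small, at 1.18-fold with a 95% interval from 0.925 to 1.5. Its log2 fold change in the authors' deposited table was -0.24 ± 0.18 (SE), with a DESeq2 adjusted p of 0.855.

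Trp53inp1 (ENSMUSG00000028211.10), a p53-induced protein that acts with p53 in arrest and cell death, had 5101 and 5806 normalized reads in H1 and H2 and 6599 and 7563 in L1 and L2. The groups were apart, with 1.30-fold more in the low group and a 95% interval from 1.01 to 1.68. The authors' deposited table gives a log2 fold change of -0.38 ± 0.19 (SE) and a DESeq2 adjusted p of 0.546.

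Gtse1 (ENSMUSG00000022385.10) is a microtubule-binding protein of S and G2 phase that carries p53 out of the nucleus and so opposes it. It had 3113 and 2692 normalized reads in H1 and H2 and 3886 and 3816 in L1 and L2. Its 2 low libraries lay closer together than the low libraries of any other of the 10 genes, with a mean of 3851 ± 48.9 (SD, n = 2) against 2903 ± 298 (SD, n = 2). The authors' deposited table gives a log2 fold change of -0.41 ± 0.19 (SE) and a DESeq2 adjusted p of 0.476.

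Sesn1 (ENSMUSG00000038332.11) codes for sestrin 1, a stress protein that restrains mTORC1. It had 485 and 516 normalized reads in H1 and H2, 336 in L1 and 764 in L2. The low libraries lay on either side of the high ones. Its log2 fold change in the authors' deposited table was -0.14 ± 0.34 (SE), with a 95% interval from -0.81 to 0.54. Without L2 the refitted value turned to 0.57 ± 0.42 (SE), so its sign rested on that library.

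Leaving out L2 also moved the pair with the largest differences. In the negative binomial refit the log2 fold change of Btg2 was -1.01 ± 0.94 (SE) without L2 and -2.70 ± 0.94 (SE) without L1. That of Plk2 was -0.85 ± 0.82 (SE) without L2 and -2.27 ± 0.82 (SE) without L1. For Mdm2 the refitted value was -0.48 ± 0.26 (SE) without L2, -0.87 ± 0.26 (SE) without L1, -0.64 ± 0.26 (SE) without H1 and -0.73 ± 0.26 (SE) without H2. With library totals in place of the deposited size factors Mdm2 was called in the refit, with an adjusted p of 0.0454. These totals are sums of the recovered reads. They leave out the 24 genes not recovered, which hold 13.7% of the summed means. By voom the adjusted p of Mdm2 was 0.276. The count of the 10 genes whose low libraries all lay above the high libraries was 6 without L2, where 37.7% of all tested genes did so. It was 8 without L1 (40.3% of all), 6 without H1 (32.2%) and 7 without H2 (31.3%). This count could not fall below 6, because genes apart with all 4 libraries stay apart when 1 is left out. In the refit without L2 the median log2 fold change of the 10 genes was -0.29, beside 0.01 over all genes. It was -0.48 without L1 (0.00 over all genes), -0.25 without H1 (-0.02) and -0.38 without H2 (-0.02). The dispersions of the refit are those implied by all 4 libraries. The errors of Btg2 and Plk2 without L2 therefore still hold the spread that L2 brought.

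**Figure D2:**
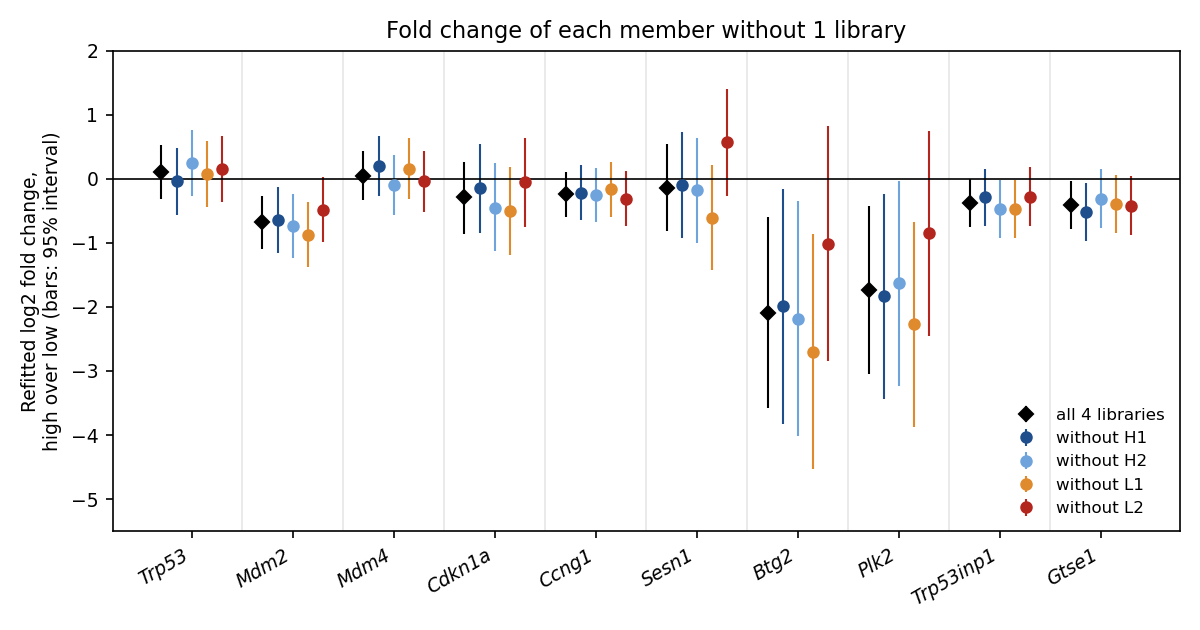
Log2 fold change (Lncenc1-high over Lncenc1-low) of each of the 10 genes in a negative binomial refit with all 4 libraries (diamonds) and without 1 library each (circles), with 95% intervals as bars. Without L2 the values of Btg2 and Plk2 shrink to -1.01 and -0.85 and Sesn1 turns to 0.57.

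Levels of different genes were compared as normalized reads per kilobase of annotated exon. In the Lncenc1-high group Ccng1 was highest at 2231, followed by Gtse1 at 1059, Trp53inp1 at 842, Mdm4 at 434, Mdm2 at 359, Trp53 at 353, Plk2 at 189, Btg2 at 180, Sesn1 at 126 and Cdkn1a at 111. The libraries of Mdm2 (347 and 370) and Trp53 (388 and 318) overlapped, as did those of Plk2 (203 and 176) and Btg2 (168 and 192), so these neighbours have no order. In the Lncenc1-low group the order on the same scale began with Ccng1 at 2630, Gtse1 at 1404 and Trp53inp1 at 1094. Btg2 came next at 763, with 361 in L1 and 1165 in L2, then Plk2 at 628, Mdm2 at 576, Mdm4 at 418, Trp53 at 327, Sesn1 at 138 and Cdkn1a at 135. There the libraries of Btg2 (361 and 1165) overlapped those of Trp53inp1 (1019 and 1168), Plk2 (341 and 915), Mdm2 (499 and 654) and Mdm4 (447 and 389), and those of Plk2 also overlapped Mdm2 and Mdm4. On this scale Mdm2 lay above Mdm4 in both low libraries. By reads the order was the reverse, with Mdm4 at 2.61 (L1) and 1.73 (L2) times Mdm2. The order per kilobase thus rests on the annotated exon lengths, 5083 bases for Mdm2 and 14798 for Mdm4. By the mean Cdkn1a was lowest in both groups, but its libraries overlapped those of Sesn1 in each (H2 of Cdkn1a and H1 of Sesn1 both round to 122), so they have no order.

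Members of the same families gave a comparison for the targets. In the BTG family, Btg1 (0.13 ± 0.30, SE), Btg3 (-0.05 ± 0.24, SE), Tob1 (-0.03 ± 0.38, SE) and Tob2 (0.19 ± 0.33, SE) had log2 fold changes near 0 in the authors' deposited table, and Btg2 alone stood at a distance. Among polo-like kinases the authors' deposited table gives Plk1 -0.06 ± 0.23 (SE), Plk3 -0.39 ± 0.43 (SE) and Plk4 0.30 ± 0.20 (SE). None of these 7 paralogs passed, and whether they differ from Btg2 or Plk2 was not tested. The other CIP/KIP inhibitors had 0.47 ± 0.21 (SE) for Cdkn1b (p27) and -0.54 ± 0.40 (SE) for Cdkn1c (p57) in the authors' deposited table. Cdkn1b had 1212 and 1175 normalized reads in the high libraries and 891 and 833 in the low ones, so that both high libraries lay above both low ones, with a DESeq2 adjusted p of 0.453. The sestrins Sesn2 (-0.04 ± 0.24, SE) and Sesn3 (-0.53 ± 0.33, SE), the cyclins Ccng2 (0.09 ± 0.36, SE) and Ccni (0.04 ± 0.21, SE), and Trp53inp2 (-0.65 ± 0.45, SE) did not pass either, by the authors' deposited table. Sesn2, Sesn3 and Trp53inp2 were, like Sesn1, higher in L2 than in L1, at 1.58, 1.78 and 2.05 times. Over the 15 tested paralogs L2 lay above L1 in only 6 (40%), beside 50.3% of all tested genes with recovered counts. Of the p53 family, Trp73 had -0.93 ± 0.52 (SE) in the authors' deposited table at 45.2 to 119 normalized reads a library, and Trp63 had at most 6 reads in any library and no adjusted p.

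**Figure D3:**
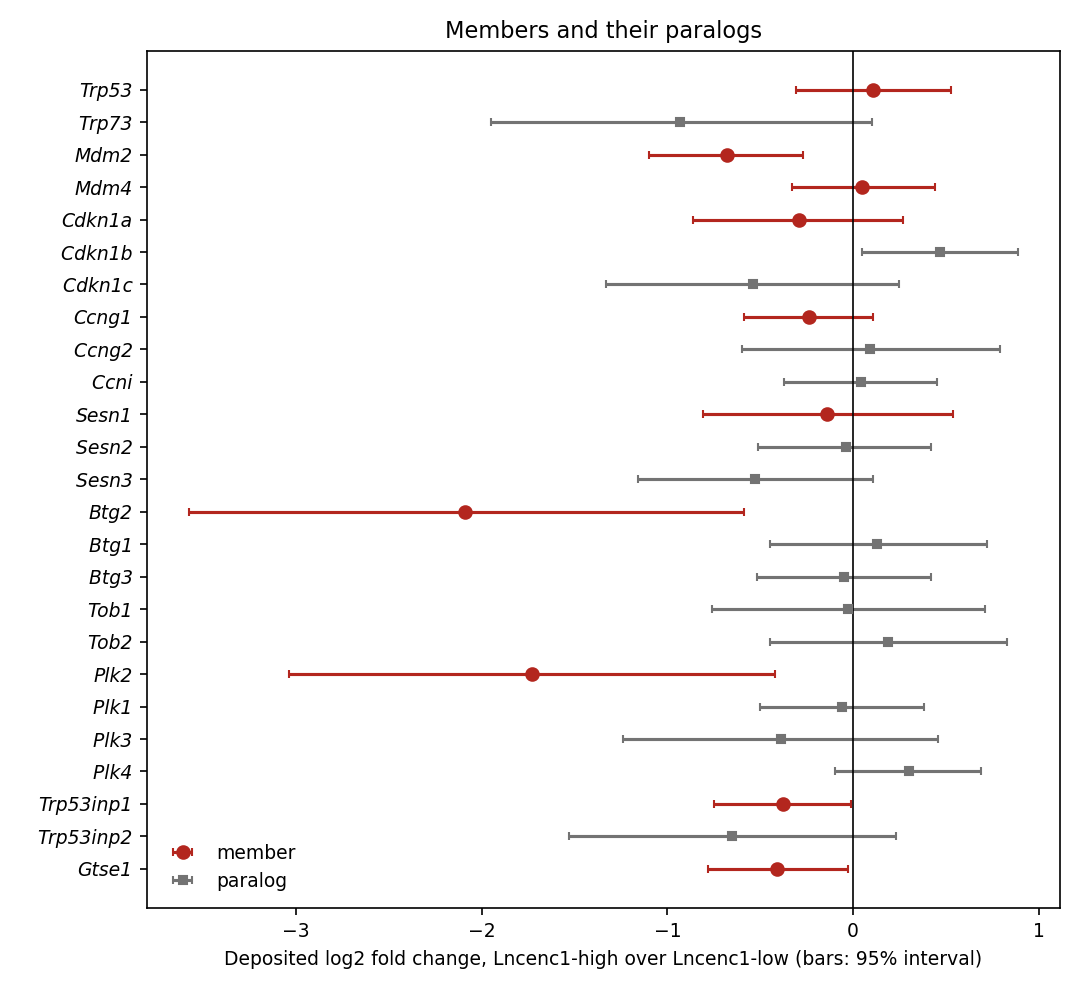
Deposited log2 fold change (Lncenc1-high over Lncenc1-low) of the 10 genes (red circles) and of their 15 tested paralogs (grey squares, below the gene they belong to), with 95% intervals as bars. The intervals of Mdm2, Btg2, Plk2, Trp53inp1 and Gtse1 lie below 0, and of the paralogs only that of Cdkn1b lies apart from 0, above it.

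The rest of the network gives the setting. Neither DESeq2 (the authors' deposited table) nor voom called any of 22 regulators of p53, whose median log2 fold change was 0.03. Over all tested genes DESeq2 called 1.53% and voom 8 of 14046, and 8.82% had a deposited unadjusted p under 0.05. The refit with library totals called 1 of them, Trp53bp1, where it called 226 of 14046 genes. The 1 at an unadjusted p under 0.05 was Trp53bp1, a scaffold at DNA breaks, at -0.75 ± 0.23 (SE) and a DESeq2 adjusted p of 0.0593 in the authors' deposited table. Its 4 libraries, from H1 to L2, held 1161, 1223, 1670 and 2339 normalized reads, an order like that of Mdm2. The smallest p after it were those of the ribosomal proteins Rpl5 and Rpl11, which bind Mdm2 when free, and of the acetyltransferase Ep300, with log2 fold changes of 0.24, 0.24 and 0.23 in the authors' deposited table.

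Of 20 further arrest, repair and metabolic targets 2 were called, both higher in the Lncenc1-low group (1.02% of all tested genes were), and the median log2 fold change was -0.26 in the authors' deposited table. Ptprv, a phosphatase-like p53 target linked to G1 arrest, had 79.1 and 81.5 normalized reads in the high libraries and 206 and 293 in the low ones. Its log2 fold change in the authors' deposited table was -1.64 ± 0.39 (SE), with a DESeq2 adjusted p of 0.00497. Dcxr, a carbonyl reductase of sugar metabolism, had 227 and 211 against 381 and 822, with -1.46 ± 0.35 (SE) and a DESeq2 adjusted p of 0.00615 in the authors' deposited table. The adenylate kinase Ak1 (-0.59 ± 0.20, SE), the repair polymerase Polk (-0.56 ± 0.27, SE) and the spindle protein Psrc1 (-0.34 ± 0.20, SE) did not pass, nor did the glutaminase Gls2 at 0.68 ± 0.28 (SE), by the authors' deposited table. Of 12 tested targets of the cell death arm 4 were called, all higher in the low group, namely Perp, Fas, Pmaip1 (-2.08 ± 0.56, SE) and Phlda3 (-0.99 ± 0.26, SE), beside 1.02% of all tested genes, with a list median of -0.78 in the authors' deposited table. Perp, a membrane protein of cell junctions, had 24.1, 13.8, 158 and 767 normalized reads in H1, H2, L1 and L2, so that L2 held 4.87 times L1. The death receptor Fas had 4, 1, 9 and 52 raw reads in the same libraries, which leaves its fold poorly fixed. Limma voom called 0 of these 12 and 0 of the 20 arrest, repair and metabolic targets, where it called 8 of 14046 genes. At an unadjusted p under 0.05 by voom were 7 of the 12, all toward the low group. Of the 20 there were 5, with 4 toward the low group, beside 5.61% of all genes in that direction. The refit with all 4 libraries called the same 4 of the 12 and the same 2 of the 20, where it called 210 of 14046 genes. Its dispersions are those implied by the deposited errors, so it repeats the deposited test and is no separate support. A fit without 1 library leaves 1 library in a group, so it cannot settle how far these calls rest on single libraries. Tnfrsf10b, a death receptor for TRAIL, followed at -1.29 ± 0.40 (SE), then the BH3-only gene Bbc3 (PUMA) at -1.01 ± 0.43 (SE), Apaf1 at -0.43 ± 0.24 (SE) and Pidd1 at -0.57 ± 0.35 (SE) in the authors' deposited table, none of which passed.

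Many genes of G2 and M phase are lowered by p53 and p21 through the DREAM repressor. Neither DESeq2 (the authors' deposited table) nor voom called any of 20 such genes, whose median log2 fold change was 0.05. Over all tested genes DESeq2 called only 1.53% and voom 8 of 14046, so a list of 20 without a call is not unusual. The 1 at an unadjusted p under 0.05 was Top2a, a topoisomerase abundant in dividing cells, with 0.54 ± 0.19 (SE) by the authors' deposited table. Of all tested genes 8.82% lay under that p in either direction. The next by p there were Cdc20 at -0.31 ± 0.18 (SE), Nek2 at 0.31 ± 0.22 (SE) and Ccnb1 at 0.18 ± 0.18 (SE). Of 16 genes of the G1 and S phase machinery on which p21 acts 1 was called by the authors' deposited table, where 1.53% of all tested genes were. Voom called 0 of the 16, where it called 8 of 14046 genes, with 1 of the 16 at an unadjusted p under 0.05. The refit called the same gene with all 4 libraries and with library totals, where 210 and 226 of 14046 genes were called. Both fits take their dispersions from the deposited errors, and the one with all 4 libraries repeats the deposited test. Fits without 1 library leave 1 library in a group and cannot settle how far this call rests on one. The called gene was Rb1, the retinoblastoma repressor, with 115 and 146 normalized reads in the high libraries and 355 and 325 in the low ones. The authors' deposited table gives Rb1 a log2 fold change of -1.39 ± 0.33 (SE) and a DESeq2 adjusted p of 0.00523. The cyclin Ccnd3, E2f1, Cdk2 and the phosphatase Cdc25a did not pass, with log2 fold changes of 0.32, 0.44, 0.29 and 0.24 in the authors' deposited table.

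**Figure D4:**
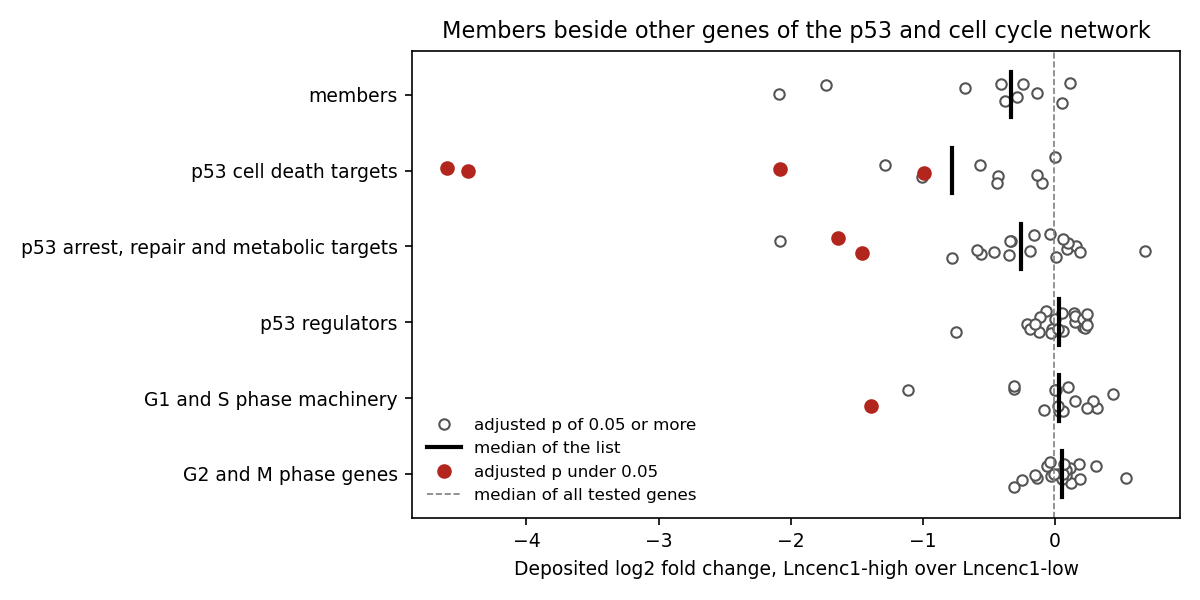
Deposited log2 fold change (Lncenc1-high over Lncenc1-low) of the 10 genes and of the tested genes of 5 further lists, 1 circle a gene, filled red where the adjusted p is under 0.05. Black bars are list medians, from -0.78 for the cell death targets to 0.05 for the G2 and M phase genes, and the dashed line is the median of all tested genes at -0.01.

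Genes with a pattern most like that of 3 members were found as the nearest of 11008 other tested genes with a mean of at least 50, by distance between log2 normalized counts centred over the 4 libraries. For Mdm2 they were Pdcd6ip (distance 0.0458), Baiap2 (0.0555) and Slc35a3 (0.0699), and the nearest of the other 9 members was Trp53inp1, at rank 302 and a distance of 0.33. For Trp53 they were Gcc1, Zfp516 and Ddx28, at 0.0172 to 0.0336, and for Cdkn1a Abcf3, Shld2 and Mllt6, at 0.0204 to 0.0301. Btg2 was added after its values were seen. Its nearest genes were Ptpn14 (0.28), Sgce (0.32), the p53 target Pmaip1 (0.39) and, at rank 4, Plk2 (0.45). With 4 libraries such nearness is common and is given as a description.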

How the data were processed

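Per the labels' protocols, total RNA was ribosome-depleted and made into stranded libraries. TopHat2, HTSeq, mm9 and DESeq2 1.8.2 appear in the submitters' processing notes without settings. Per the file headers, the deposited table gives the mean normalized count over the 4 libraries, a signal, with the authors' log2 fold change and its standard error (log2), Wald statistic (a score), p-value and adjusted p-value. These are the main result, at an adjusted p under 0.05. The edgeR test planned for counts was not run, as the table has no column per library.

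Counts per library were recovered as the whole numbers that, times 4 fixed steps read from low genes, give a deposited mean to 15 digits. Where several did, the refitted fold change decided (within 0.00001, the next at least 10 times worse), and a single solution had to lie within 0.001 unless a group had few reads. This gave 19816 of 19840 genes (99.9%), and the other 24 hold 13.7% of the summed means. Size factors were 1.95 (H1), 0.797 (H2), 0.811 (L1) and 0.809 (L2). The deposited fold change came back within 0.00001 for 13900 of the 14041 tested genes that had reads in each group. The counts entered values per library, a negative binomial Wald refit at the dispersions implied by the deposited errors, and voom (limma 3.58.1, R 4.3.3). The recovery and both fits were tested on simulated data.

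Names were matched by Ensembl identifier for 19707 genes. GENCODE M21 (GRCm38, another build) gave exon lengths and overlaps. The 10 genes, the lists and the motifs were chosen with earlier results of these data known. Named genes were all 10 members, all their paralogs and, in each list, the called genes and up to 4 more by p, plus, by nearness, the genes closest to Mdm2, Trp53 and Cdkn1a.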

Additional observations from a re-analysis of the deposited data

How the results depend on the processing

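Of 60 values of the 10 genes in the 6 alternatives that estimate the fold change anew, 55 kept their direction and their side of the threshold and 1, Mdm2 with library totals, passed it. Reversed were Trp53 without H1 (-0.04), Mdm4 without H2 (-0.10) and without L2 (-0.04), and Sesn1 without L2 (0.57). Fewer libraries entered these fits. The number of the 10 genes called was 0 in the deposited fit and in every fit without 1 library (0 to 0). It was 1, Mdm2, with library totals (sums of the recovered reads only), where 226 of 14046 genes were called. It was also 1, Mdm2 (0.0654), at an adjusted p under 0.1, where 301 of 14070 genes were called. In the deposited fit the count over all genes was 215. It was 49 to 197 without 1 library (56 without H1, 80 without H2, 197 without L1, 49 without L2) and 8 by voom, and the cause was not tested. Groups of 2 libraries limit all of these tests. No paired analysis was possible because the deposited table carries no replicate number and the recovered libraries cannot be tied to those the labels give.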
